A study of Gallus gallus with 4 samples.

Results

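Translation factors and aminoacyl-tRNA synthetases were followed across 4 arrays of chicken embryo tissue. The genes were chosen by symbol, taking every probe set whose single annotated gene symbol matched a pattern. The pattern took symbols that start with EIF and a digit, EEF1 or EEF2, and ETF1, GSPT1 and EPRS. It also took a single letter followed by ARS or ARS2. This gave 80 genes of the 13009 named on the array, measured by 151 of its 38535 probe sets. Synthetase and release factor genes under other symbols, such as FARSA, FARSB and MTRF1, are not members. By role there were 36 initiation factors, 7 regulators of initiation, 1 release factor and 9 elongation genes. The elongation genes include EEF2K, a kinase, and EEF1E1, which docks on tRNA synthetases. Counted apart from them were 2 methyltransferases that modify elongation factors. Charging enzymes made up the rest, 13 cytosolic and 12 mitochondrial.

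The tissue was the primitive streak region of embryos of 9 somites, which holds the precursors of the presomitic mesoderm (PSM). Embryos were electroporated at stage 5 of the Hamburger and Hamilton series, after 24 h of incubation at 38 °C, and cultured for a further 14 h. In the HoxA13 group the vector carried HoxA13, driven by the CAGGS promoter, together with an H2B-Venus reporter. In the control group it carried H2B-Venus alone, so both groups were electroporated and both received the reporter. There were 2 arrays per group, each from a pool of 7 embryos, described as separate biological samples. The share of cells that took up the vector is not given in the sources used here. In such tissue pools, fewer cells of a type and less RNA per cell cannot be told apart.

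Translation begins when the factor eIF2 brings the initiator tRNA to the small ribosomal subunit, on which the large complex eIF3 and the small factors eIF1 and eIF1A assemble. The eIF4 group binds the mRNA cap and unwinds the leader, and eIF5 and eIF5B complete the joining of the subunits. Elongation factors then deliver charged tRNAs and move the ribosome along, until release factors end the chain. tRNA synthetases attach each amino acid to its tRNA, with separate nuclear-encoded enzymes for the mitochondria in most cases. GARS and KARS serve both compartments and are counted here as cytosolic.

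Per array, 37.8% to 42.7% of chicken probe sets exceeded background. Background was the 99th percentile of the array's viral probe sets, a signal between 12.8 and 16.5. Of the PSM progenitor markers, TBXT, WNT3A, FGF8, CDX4 and MSGN1 were above it on all 4 arrays, and TBX6 on none. The summed signals of this list were 13947 and 13436 with HoxA13 against 12334 and 10732 in controls. Of its 5 tested genes, 3 had both HoxA13 arrays above both controls and 1 had them below. Over all tested probe sets these shares were 18.6% and 14.3%. Of the endoderm, endothelial and blood markers none was bright enough to be tested. The single HOXA13 probe set stayed near background, with 16.3 and 8.09 under the HoxA13 label against 11.6 and 24.7 in controls, and whether it lies in the part carried by the vector is not known. The labelled overexpression was therefore not checked through it. Among markers of other tissues, 3 neural genes gave summed signals of 49.6 and 68.7 against 24.3 and 42.8. These are near background, and none of the 3 was above it on all 4 arrays. For 3 notochord and node genes, of which 2 were above background on all 4 arrays, the sums were 52.7 and 81.5 against 56.9 and 62.0. For 2 surface ectoderm genes the sums were 1597 and 1046 against 2624 and 1733. In the limma fit described below, 0 markers of the PSM and surface ectoderm lists were called. With the replicate number as a block, 1 PSM marker was called higher and 1 surface ectoderm marker lower. Of all tested probe sets, 0.386% were called higher and 0.758% lower with that block. The part of all these markers in the values below was not tested.

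The arrays did not carry equal amounts of the 5′ parts of transcripts, and a member gene shows it. EEF1A1 codes for the factor that delivers charged tRNAs to the ribosome, and the array holds control probe sets at its 3′ end, middle and 5′ end. Values are given for replicates 1 and 2 of HoxA13 against replicates 1 and 2 of the control. The 3′ probe set gave 9394 and 8967 against 9547 and 8646. The middle one gave 4175 and 3219 against 4758 and 1914. The 5′ one gave 538 and 337 against 740 and 254. Control replicate 1 was the highest of the 4 arrays at each position and control replicate 2 the lowest, with both HoxA13 arrays between them. As a share of the 3′ signal, the 5′ signal was 5.73% and 3.76% with HoxA13, and 7.75% and 2.94% in the controls. The control probe sets of GAPDH gave the same order, with 7.50% and 6.80% against 10.4% and 5.69%, and so did those of ACTB, with 2.45% and 1.39% against 3.32% and 0.983%. The spread between the controls was therefore wider than that between the HoxA13-labelled arrays in all 3 transcripts, and replicate 2 lay below replicate 1 in each group.

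**Figure D1:**
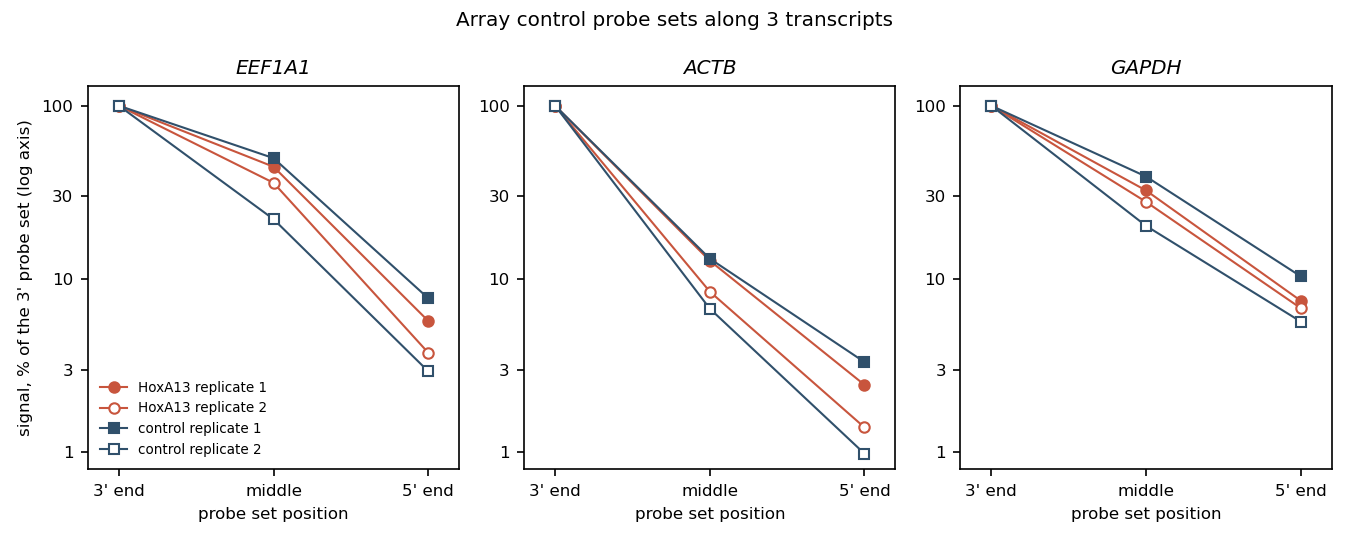
Signal of the array's control probe sets in the middle and at the 5′ end of EEF1A1, ACTB and GAPDH, as a percentage of the 3′ probe set (log axis), for each of the 4 arrays. Control replicate 2 is lowest at the 5′ end in all 3 genes, at 2.94%, 0.983% and 5.69%.

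The comparison asks which transcripts differ between progenitors with HoxA13 and with the reporter alone. For the translation machinery it gave no call. Of the 80 genes, 71 had a probe set whose mean level over all 4 arrays was above background, and these 71 were above background on every array. The 9 others stayed at or below a signal of 23.4, namely EIF2B5, EIF4B, EIF4E1B, EIF4E3, EIF4G1, EIF2AK3, EEF2K, NARS2 and TARS2. For each gene the probe set with the highest mean level is given. Differences are HoxA13 minus control on the log2(intensity + 16) scale, which understates changes of dim probe sets. In limma 0 of the 71 genes passed an adjusted p of 0.05, against 0.014% of all 14252 tested probe sets called higher and 0.0561% called lower. The smallest adjusted p among the genes was 0.901. At an unadjusted p under 0.05 in limma there was 1 gene, RARS, beside 5.03% of all tested probe sets, which is 717 against 713 expected by chance. Counted over all 101 tested member probe sets there were 3, and the smallest adjusted p was 0.815 in limma. With the replicate number as a block 0 members passed as well, beside 0.386% called higher and 0.758% called lower of all tested probe sets.

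The differences ranged from -0.54 for EIF2D to 0.61 for EEF1G, and 52 of the 71 genes lay within 0.25 of 0. The median was 0.07, beside 0.03 over all tested probe sets. The 95% interval, not adjusted for the number of genes, excluded a 2-fold difference of intensity + 16 in either direction for 63 genes. For dim genes among them, such as EEF1A2 and EIF2AK2, this does not exclude a 2-fold difference of the signal itself. The interval reached beyond 2-fold on this scale for GARS, EEF1G, EIF3A, EIF3M, EIF2D, EARS2, PARS2 and EIF2AK1. Over all tested probe sets the interval excluded a 2-fold difference on the same scale in 70.2%.

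**Figure D2:**
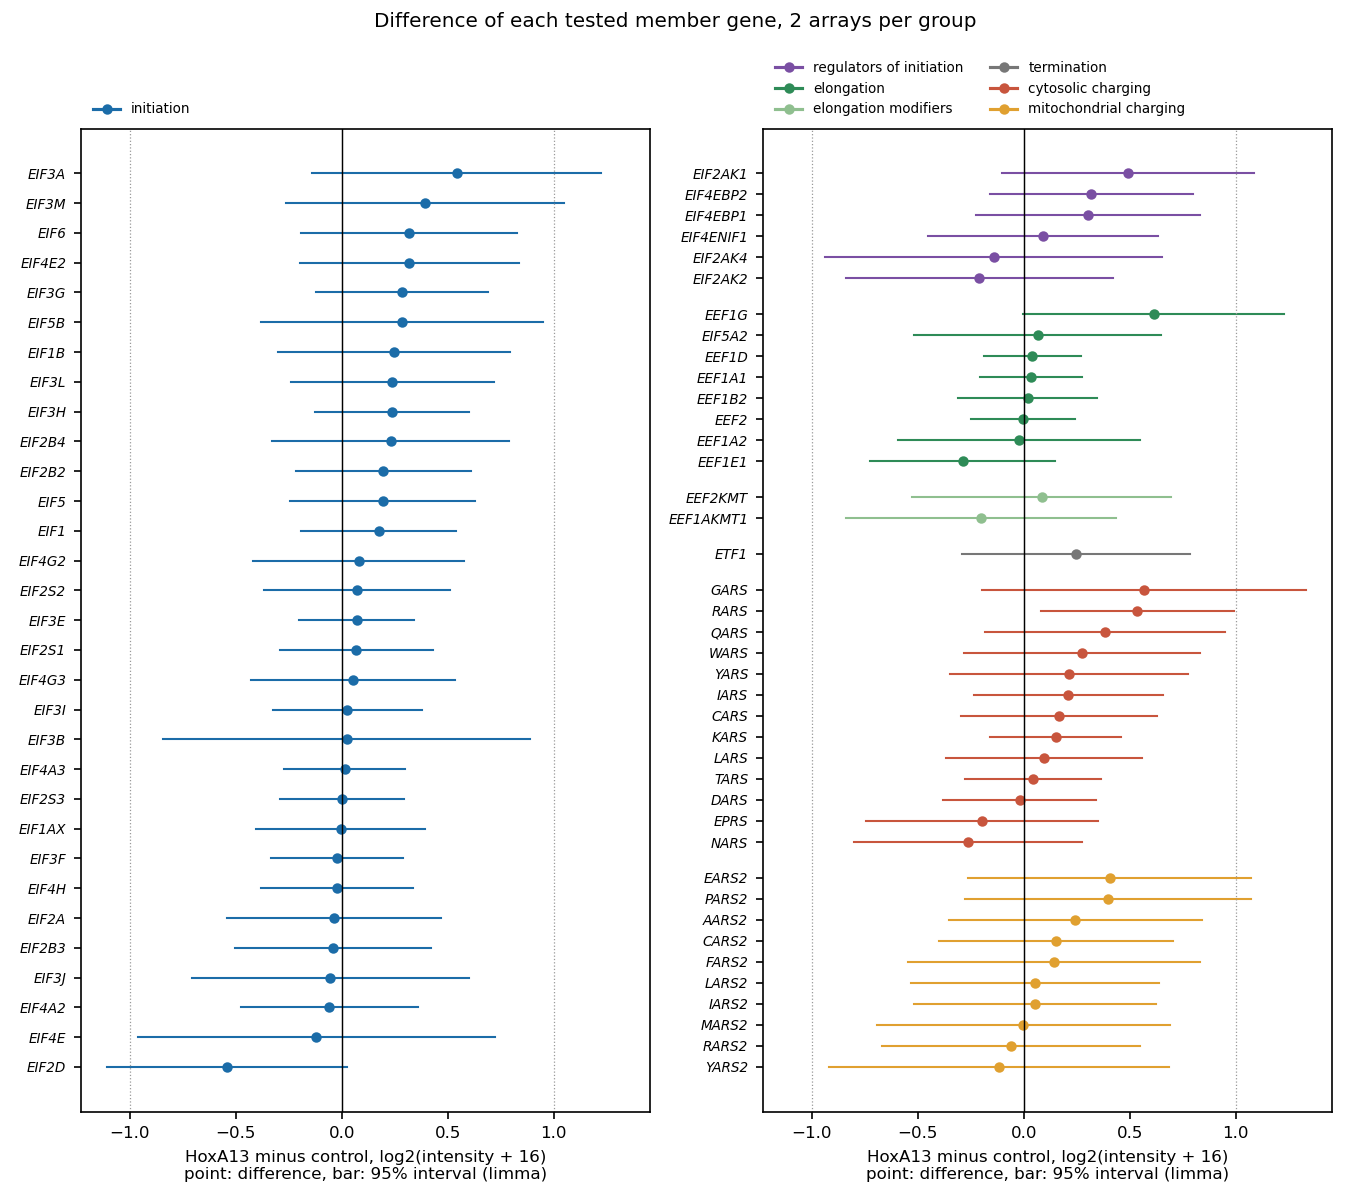
Difference between HoxA13 and control for the 71 tested member genes, on the log2(intensity + 16) scale, with 95% intervals from limma. Dotted lines mark a 2-fold difference of intensity + 16. EEF2, EEF1D and EEF1A1 have the narrow intervals around 0, and the interval of RARS is the 1 that leaves out 0.

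Small differences leaned towards the HoxA13-labelled arrays. In 23 of the 71 genes (32.4%) both HoxA13 arrays were above both controls, and in 4 (5.63%) both were below. Counted over all 101 tested member probe sets, the numbers were 29 (28.7%) and 8 (7.92%). Over all tested probe sets these shares were 18.6% and 14.3%, and over those at or above the median level of the member genes 15.9% and 14.0%. The lean was not even over the controls. Against control replicate 2 alone both HoxA13 arrays were higher in 48 genes and lower in 9, beside 43.4% and 28.8% of all tested probe sets. Against control replicate 1 alone they were higher in 30 and lower in 17, beside 32.6% and 34.9%. Control replicate 2 is the array with the lowest 5′ signals, and the part of this in the lean was not tested. Of the 71 genes, 50 were brighter on control replicate 1 than on control replicate 2, against 56.9% of all tested probe sets.

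**Figure D3:**
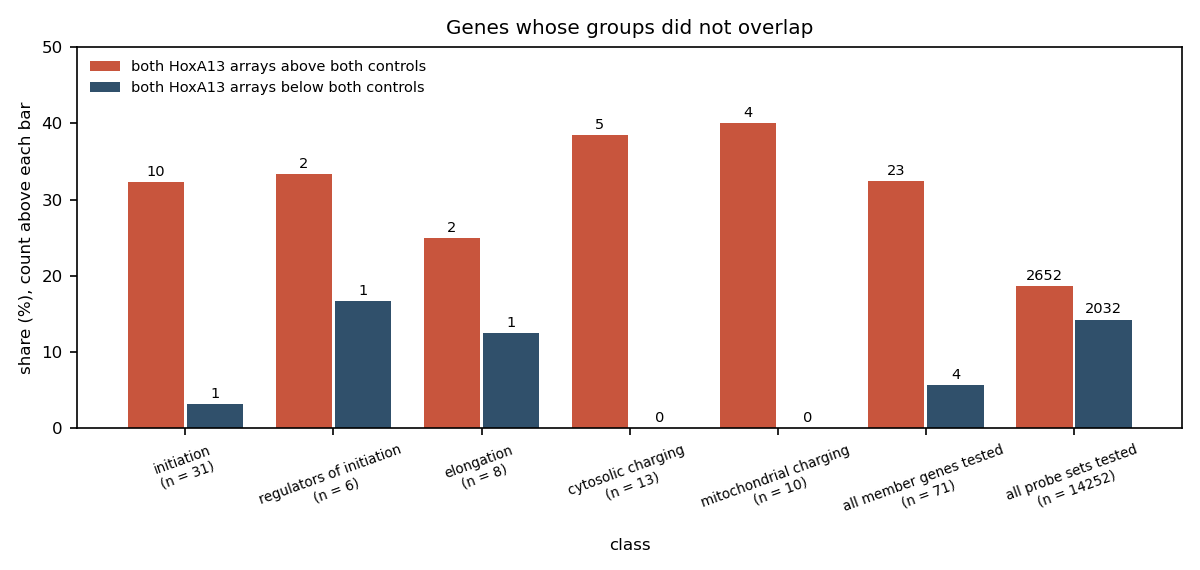
Percentage of tested genes with both HoxA13 arrays above (red) or below (blue) both controls, with the count over each bar. Bars are drawn for initiation, its regulators, elongation, cytosolic and mitochondrial charging, all member genes and all tested probe sets. Red is the taller bar in each. The elongation modifiers, with 0 above and 1 below, and termination, with neither, are not drawn. In all tested probe sets the bars stand at 18.6% and 14.3%.

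Among initiation factors, 10 of 31 tested genes had both HoxA13 arrays above the controls and 1 had them below. Over all tested probe sets these shares were 18.6% and 14.3%. The median difference of the initiation factors was 0.07, beside 0.03 over all tested probe sets. None of the subunits of eIF2, which carries the initiator tRNA, passed the test. EIF2S1, its regulatory alpha subunit, was 1938 and 1967 against 1850 and 1871. Both HoxA13 arrays were above both controls, by 0.07 ± 0.16 on the log2 scale (SE, adjusted p = 0.999 in limma), and the gap was wider than the spread within either group. EIF2S3, the gamma subunit that binds the tRNA, was 3588 and 3651 against 3645 and 3598, and its groups overlapped. EIF2S2, the beta subunit, was 2729 and 2063 against 2552 and 2000 at its brighter probe set, which followed the replicate number. Its dimmer probe set was 77.0 and 69.0 against 170 and 118, with both HoxA13 arrays below the controls, a difference of -0.83 ± 0.30 on the log2 scale (SE, adjusted p = 0.834 in limma).

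EIF2D, which can deliver tRNA to the ribosome in place of eIF2 and takes part in recycling, had the lowest difference of all tested member genes. It was 629 and 1002 against 1115 and 1213. The groups did not overlap, but the HoxA13-labelled arrays were further apart from each other than HoxA13 replicate 2 was from either control. The log2 difference was -0.54 ± 0.25 (SE, adjusted p = 0.999, limma), and the second tested probe set gave -0.24 ± 0.26.

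The exchange factor eIF2B reloads eIF2 with GTP after each round. EIF2B2 was 1525 and 1383 against 1307 and 1225, and EIF2B4 was 362 and 360 against 318 and 293. Both genes had their groups apart, with log2 differences of 0.20 ± 0.18 and 0.23 ± 0.25 (SE). Groups were apart in this direction in 18.6% of all tested probe sets and in the other direction in 14.3%. EIF2B3 was 946 and 853 against 887 and 964 and overlapped. EIF2B5, the catalytic subunit, was below background on all 4 arrays at its probe set and could not be compared.

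The eIF3 complex holds the small subunit and the mRNA together during assembly, and 10 of its subunit genes were tested. EIF3A, the largest subunit, was 263 and 346 against 164 and 249, a difference of 0.54 ± 0.30 on the log2 scale (SE, adjusted p = 0.999 in limma). The groups were apart, though HoxA13 replicate 1 and control replicate 2 nearly met, and a dim second probe set gave -0.16 ± 0.24. EIF3G was 1615 and 1646 against 1441 and 1238, and EIF3H 3193 and 3024 against 2951 and 2348, and these were the other 2 with groups apart. Both HoxA13 arrays were thus above both controls in 3 of the 10 genes and below in 0. The shares over all tested probe sets were 18.6% and 14.3%. EIF3E, a subunit that also binds eIF4G, was 5272 and 5116 against 5165 and 4739, with an interval from -0.20 to 0.34. EIF3M was 1257 and 1184 against 1285 and 667. Only control replicate 2 was low there, which set a log2 difference of 0.39 ± 0.29. Of the 10 genes, 9 were brighter on control replicate 1 than on control replicate 2, beside 56.9% of all tested probe sets.

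Over all tested probe sets 18.6% had both HoxA13 arrays above both controls and 14.3% below. In the cap-binding group 1 of 7 tested genes had its groups apart. This was EIF4E2, a relative of the cap-binding protein that represses translation of some mRNAs, at 710 and 624 against 568 and 496 and a log2 difference of 0.32 ± 0.23 (SE). EIF4E, the cap-binding protein itself, was 217 and 157 against 297 and 136. The controls were the highest and the lowest of the 4 arrays, and the interval from -0.96 to 0.72 was the widest of this group. The helicase gene EIF4A2 was 4197 and 3868 against 5126 and 3433 and EIF4A3, a helicase of the exon junction complex, 4279 and 4747 against 4374 and 4557. EIF4G2, a scaffold that lacks the cap-binding part, was 4692 and 3372 against 4649 and 3044, so replicate 2 was low in both groups. The main scaffold EIF4G1 was below background on all arrays at its probe set. EIF4G3 gave 0.05 at its brightest probe set and -0.38 and -0.16 at the other 2 tested, where both HoxA13 arrays were below both controls.

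Factors of start codon choice and subunit joining had groups apart in 3 of 6 genes, all with the HoxA13-labelled arrays above. Over all tested probe sets 18.6% had them above and 14.3% below. EIF1 was 2477 and 2151 against 2140 and 1953, and its relative EIF1B was 456 and 424 against 393 and 345. These EIF1B values are from its brighter probe set, with a log2 difference of 0.25, and the dimmer tested one gave -0.06. EIF6 keeps the large subunit from joining too early. It was 642 and 714 against 569 and 511 at its brighter probe set, a difference of 0.32 ± 0.23 on the log2 scale (SE, adjusted p = 0.999 in limma). Its dimmer probe set was 59.1 and 116 against 27.8 and 40.1, and 1.01 ± 0.35 was the largest difference of any tested member probe set (adjusted p = 0.815). EIF6 was thus higher on both HoxA13-labelled arrays at both probe sets, without passing. EIF5B, the joining GTPase, was 98.6 and 121 against 98.9 and 75.8, and a dimmer probe set gave -0.63 ± 0.36.

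Genes that hold initiation in check were mixed. EIF2AK1, the heme-regulated kinase that phosphorylates eIF2, was 728 and 629 against 389 and 584, a difference of 0.49 ± 0.26 on the log2 scale (SE, adjusted p = 0.999 in limma). Control replicate 1 was the low array here, and control replicate 2 lay close to HoxA13 replicate 2. EIF2AK2, the kinase activated by double-stranded RNA, was 31.2 and 24.5 against 34.3 and 34.7. EIF2AK4, the kinase that senses uncharged tRNA, was 129 and 61.9 against 111 and 92.1 and overlapped. EIF2AK3, the kinase of the endoplasmic reticulum, was below background on all 4 arrays. EIF4EBP1, which blocks eIF4E until mTOR phosphorylates it, was 872 and 801 against 785 and 578, a log2 difference of 0.30 ± 0.23. EIF4EBP2 was 1668 and 1248 against 1251 and 1064, with HoxA13 replicate 2 level with control replicate 1.

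Of 8 elongation genes tested, 2 had both HoxA13 arrays above the controls and 1 had them below. These counts are near the shares over all tested probe sets, 18.6% and 14.3%. EEF2, the translocase, was 6176 and 6446 against 6264 and 6387, a log2 difference of 0.00 with an interval from -0.25 to 0.24. EEF1A1 was 7205 and 6943 against 7105 and 6694 at its regular probe set, with an interval from -0.20 to 0.28. EEF1D, a subunit of the exchange factor of eEF1A, was 7630 and 7607 against 7446 and 7374. Its groups were apart by a log2 difference of 0.04 ± 0.10 (SE), with an interval from -0.19 to 0.27. EEF1B2, another subunit, was 3203 and 3841 against 3581 and 3352. Its second probe set was 1289 and 808 against 1500 and 520, with the arrays in the order of the EEF1A1 middle and 5′ probe sets. That order, control 1, HoxA13 1, HoxA13 2, control 2 from high to low, was found in 11 of 101 tested member probe sets and in 8.89% of all tested probe sets.

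EEF1G, the structural subunit of the same exchange factor, had the highest difference of the genes. It was 264 and 297 against 199 and 159, a difference of 0.61 ± 0.27 on the log2 scale (SE, adjusted p = 0.997 in limma). The groups did not overlap, and the gap between them was wider than the spread within either. A dim second probe set did not follow, at 32.9 and 28.6 against 30.1 and 35.2. EEF1E1, a small protein that docks on the complex of tRNA synthetases, was the elongation gene with both HoxA13 arrays below the controls, at 1477 and 1293 against 1899 and 1506 and a log2 difference of -0.29 ± 0.19. EEF1A2, in mammals the form of muscle and neurons, was 22.3 and 21.5 against 25.03 and 20.2, just above background. EIF5A2, a form of the factor that relieves stalled ribosomes, was 330 and 389 against 309 and 377 and followed the replicate number. EEF2K, the kinase that inactivates eEF2, was below background throughout.

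Of the enzymes that modify elongation factors, EEF1AKMT1, a lysine methyltransferase of eEF1A, was 91.8 and 81.2 against 97.5 and 106. Both of its tested probe sets had the HoxA13-labelled arrays below the controls, with log2 differences of -0.20 ± 0.28 and -0.47 ± 0.32 (SE). EEF2KMT, which methylates eEF2, was 170 and 201 against 177 and 170. The release factor gene ETF1, whose product recognises the stop codons, was 1057 and 1002 against 1055 and 709. Control replicate 2 alone was low, and the log2 difference was 0.25 ± 0.24 (SE, adjusted p = 0.999, limma).

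**Figure D4:**
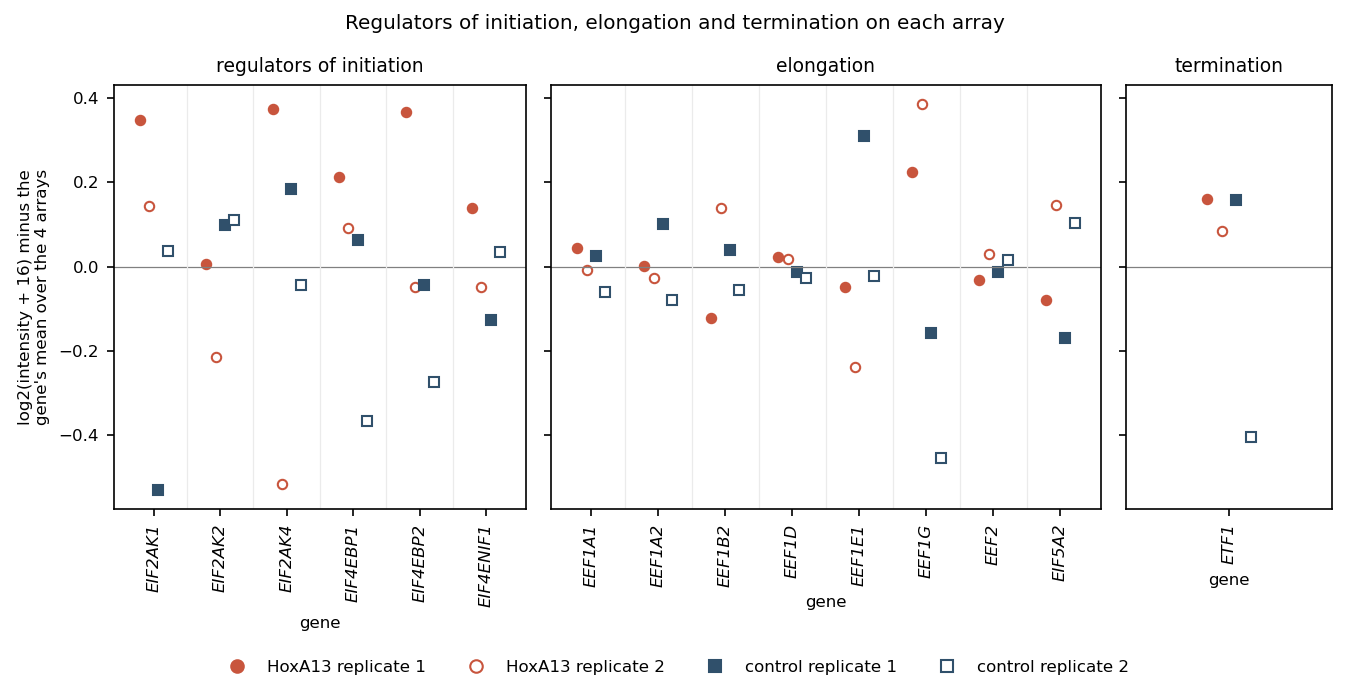
Signal of the regulators of initiation, the elongation genes and the release factor ETF1 on each array, as log2(intensity + 16) minus the gene's mean over the 4 arrays. The points of EEF1A1, EEF1D and EEF2 lie close together, while ETF1 has control replicate 2 alone far below the others.

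Cytosolic charging enzymes had a median difference of 0.17, with 10 of 13 genes above 0. Over all 14252 tested probe sets the median was 0.03, with 7823 above 0. Both HoxA13 arrays were above both controls in 5 genes, which were KARS, QARS, RARS, WARS and YARS, and below in none. Over all tested probe sets the shares were 18.6% above and 14.3% below. RARS, the arginyl-tRNA synthetase, was 1764 and 2325 against 1540 and 1259, a difference of 0.54 ± 0.20 on the log2 scale (SE, unadjusted p = 0.0259, adjusted p = 0.901 in limma). HoxA13 replicate 2 stood well above the other arrays. Its second probe set was 420 and 325 against 437 and 191 and overlapped.

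KARS, the lysyl-tRNA synthetase, was 3248 and 3266 against 2989 and 2874. The arrays of each group lay close together and the groups apart, by 0.15 ± 0.14 on the log2 scale (SE, adjusted p = 0.999 in limma). WARS, for tryptophan, was 430 and 506 against 413 and 355. YARS, for tyrosine, was 468 and 385 against 349 and 379, and all 3 of its tested probe sets had the HoxA13-labelled arrays above, with differences of 0.21, 0.29 and 0.55. QARS, for glutamine, was 796 and 788 against 494 and 738, where control replicate 1 was the low array. A second QARS probe set gave 0.29, and another, dim one gave -0.34 and overlapped.

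GARS, for glycine, gave the highest difference of the class, 0.57 ± 0.34 (SE), at 613 and 444 against 487 and 246. Its groups overlapped and control replicate 2 was far below the rest. NARS, for asparagine, was 874 and 885 against 1296 and 865, so control replicate 1 alone was high. EPRS, which charges both glutamate and proline, was 1021 and 737 against 1138 and 875, and a dimmer probe set also overlapped. LARS, for leucine, was 1641 and 2248 against 1616 and 1996, with replicate 2 above replicate 1 in both groups. TARS, for threonine, was 4302 and 3892 against 3628 and 4344, an interval from -0.28 to 0.37.

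**Figure D5:**
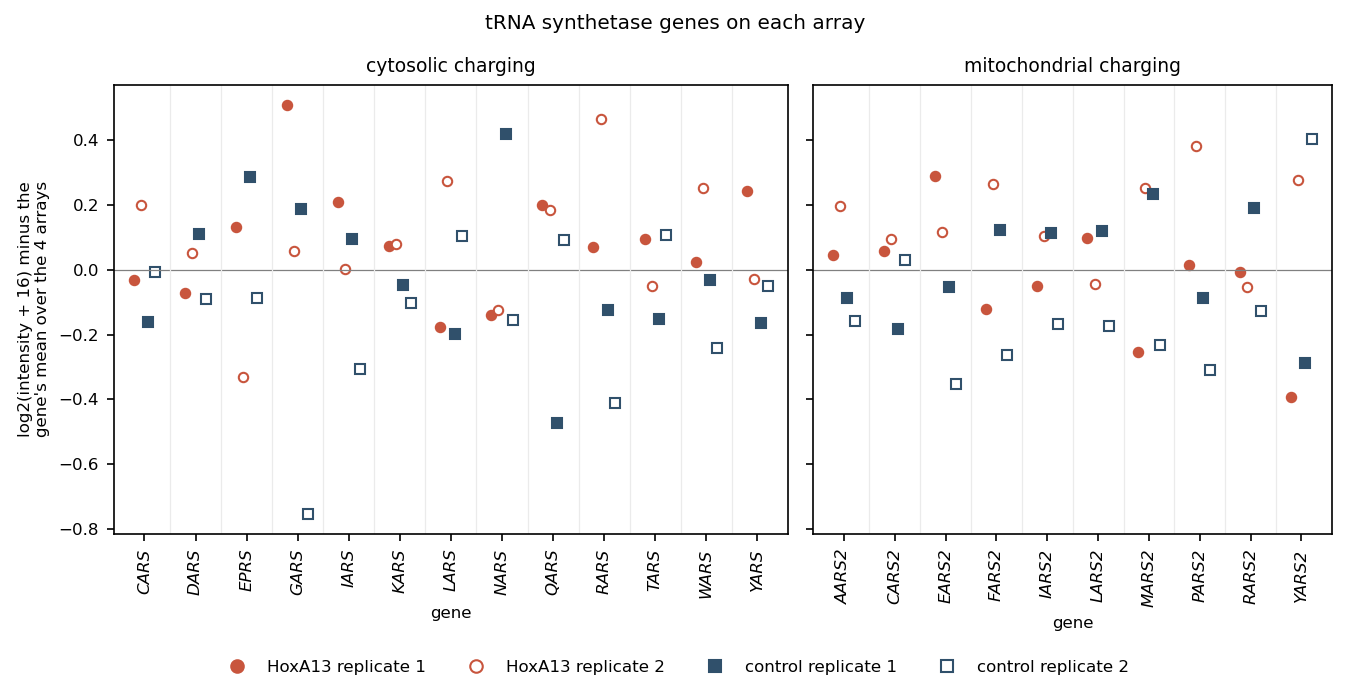
Signal of the 13 cytosolic and 10 tested mitochondrial tRNA synthetase genes on each array, as log2(intensity + 16) minus the gene's mean over the 4 arrays. The HoxA13-labelled arrays (circles) lie above both controls (squares) in 5 cytosolic and 4 mitochondrial genes, beside 18.6% of all tested probe sets.

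Mitochondrial charging enzymes had a median difference of 0.10, and 7 of 10 tested genes were above 0. Of all 14252 tested probe sets 7823 were above 0, with a median of 0.03. Both HoxA13 arrays were above both controls in 4, which were AARS2, CARS2, EARS2 and PARS2, and below in none. Over all tested probe sets the shares were 18.6% above and 14.3% below. EARS2, for glutamate, was 85.2 and 73.7 against 63.9 and 48.8, a difference of 0.41 ± 0.30 on the log2 scale (SE, adjusted p = 0.999 in limma). PARS2, for proline, was 41.6 and 58.3 against 37.7 and 29.99. AARS2, for alanine, was 228 and 255 against 206 and 196, and CARS2, for cysteine, 402 and 412 against 337 and 394. In all 4 the gap between the groups was smaller than the wider of the spreads within them. LARS2, for leucine, was 345 and 312 against 351 and 284, in the order of the EEF1A1 5′ probe set. YARS2, for tyrosine, followed the replicate number, with 84.2 and 143 against 91.8 and 158.

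Set side by side, the class medians were 0.07 for initiation, 0.20 for its regulators, 0.03 for elongation, 0.17 for cytosolic and 0.10 for mitochondrial charging. With arrays centred on their median the elongation value was -0.00, so its sign turned, and the others stayed above 0. Whether the classes differ from each other was not tested. Taken per array relative to each gene's mean, the median of the initiation genes was 0.12 and 0.05 with HoxA13 against 0.02 and -0.17 without. For elongation it was -0.02 and 0.02 against 0.01 and -0.04. For cytosolic charging it was 0.07 and 0.06 against -0.05 and -0.09, so both controls were below both HoxA13 arrays, as in initiation. For mitochondrial charging it was 0.00 and 0.16 against 0.03 and -0.17. Control replicate 2 was the lowest array in each of these 4 classes. The regulators of initiation went another way, at 0.28 and -0.05 against 0.01 and -0.00, with HoxA13 replicate 1 alone high and HoxA13 replicate 2 the lowest.

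Several genes had more than 1 tested probe set, 27 in all, and in 13 of them the probe sets differed in sign. In EEF1G, EIF2S2, EIF3A, EIF5B and QARS they differed in sign and by over 0.5 on the log2 scale, and in each the probe set with the negative value was the dimmer. The brighter probe set stands for the gene above, so the values of these 5 genes depend on that choice.

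Other genes of the pathway were also without a call. Of 45 listed, 35 had a probe set and 26 were tested, of which 4 had both HoxA13 arrays above the controls and 2 below, beside 18.6% and 14.3% of all tested probe sets. AIMP2, a scaffold of the synthetase complex, was 2069 and 2059 against 1626 and 1622. The arrays of each group agreed closely and the groups were apart, by 0.34 ± 0.16 on the log2 scale (SE, adjusted p = 0.999 in limma). The subunits of the phenylalanyl-tRNA synthetase, FARSA and FARSB, were 86.5 and 64.2 against 67.1 and 62.1, and 719 and 598 against 653 and 593. MTRF1, a mitochondrial release factor, was 63.9 and 80.0 against 45.0 and 41.3 at its brightest probe set. Its dimmer tested probe sets gave log2 differences of 0.16 and 0.05 and overlapped. ATF4, the transcription factor that eIF2 phosphorylation induces and that drives synthetase genes, was 917 and 781 against 881 and 1118. Its target ASNS, asparagine synthetase, was 605 and 355 against 397 and 540. Both overlapped, and in ASNS the HoxA13-labelled arrays were the highest and the lowest of the 4. PHGDH, the first enzyme of serine synthesis, was 44.7 and 42.7 against 25.1 and 22.8, apart by 0.58 ± 0.28 (SE, adjusted p = 0.999 in limma). In the mTOR list 5 of 10 measured genes were tested, and MTOR was 33.6 and 33.1 against 22.0 and 25.8. The 2 genes with both HoxA13 arrays below the controls were EEFSEC, the elongation factor for selenocysteine, at 170 and 153 against 178 and 201, and SEPSECS, which makes selenocysteine on its tRNA, at 15.5 and 17.0 against 31.8 and 17.8. Their differences were -0.21 ± 0.27 and -0.32 ± 0.27 (SE). SEPSECS was just above background on all arrays but control replicate 1, and both HoxA13 arrays nearly met control replicate 2. AIMP2, MTRF1, PHGDH, MTOR, EEFSEC and SEPSECS, the 6 genes whose groups were apart at their brightest probe set, are named here after their values were seen.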

How the data were processed

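Total RNA of 4 pools of chicken embryo tissue was amplified in 2 cycles and hybridised to 1 array each, per the labels' protocols. Each deposited file holds 1 intensity per probe set on a linear scale. R 2.12.1 is the only tool in the submitters' processing notes, while the sources used here do not name the background correction, summary or scaling. Every column belonged to a sample. Genes were named from the platform annotation, and 77 of the 80 genes matched a RefSeq table (GRCg7b) with 0 symbols changed. The members and lists were chosen with earlier results of these data known. Intensities were put on a log2 scale after adding 16, and limma 3.58.1 in R 4.3.3 (eBayes with intensity trend and robust estimation, Benjamini-Hochberg) was fitted to the 14252 of 37693 chicken probe sets whose mean log2 signal over all arrays was above the mean background, a filter that does not use the groups. Of the 151 member probe sets 101 were tested. The 3 EEF1A1 array controls were left out of the fit. P-values measure variation among arrays, each from 1 embryo pool, so pool, amplification and hybridisation are not separated. An exact permutation test of 2 against 2 arrays could not pass the threshold and was not used. Named genes were, in each class, the brightest and the 4 with the smallest p, a fixed set (of which 4 had no member probe set here), genes whose probe sets disagreed in sign by over 0.5, and any that passed. Other genes are values beside these, outside that rule. They include genes with groups apart, such as EIF2B2, EIF4E2, EIF1 and YARS, and genes that overlapped, such as EIF2S3. Tested members such as CARS, DARS, IARS and EIF3F, whose groups overlapped, are not described. The number of arrays limits the precision. Alternatives covered offset, filter, prior, scaling, replicate number and each array left out.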

Additional observations from a re-analysis of the deposited data

How the results depend on the processing

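No member probe set passed in limma under any of the 13 alternatives. Among 41 named genes tested, the smallest adjusted p under an alternative was 0.168 with the replicate block and 0.256 without control replicate 1, and 0.791 or above otherwise. Leaving out an array changed the sign in between 5 and 7 of these genes. The replicate numbers are tied to no day or batch by the labels. The replicate 1 minus 2 differences of both groups correlated across probe sets (Pearson 0.32 over 14252 probe sets, not independent replicates). The replicate block raised the calls over all tested probe sets from 2 to 55 higher (0.386%) and from 8 to 108 lower (0.758%), with 0 members among them. Without an array the calls over all probe sets ranged from 0 to 15 higher and from 5 to 34 lower, the highest without control replicate 1. Offset 1 gave 0 higher and 2 lower, no filter 0 and 1, plain log2 without a filter 0 and 0 (with 2227 at an unadjusted p under 0.05), and no trend 0 and 1. Class medians with an array left out ranged from 0.0429 to 0.18 over all member genes, from 0.0176 to 0.24 for initiation, from 0.05 to 0.33 for its regulators, from -0.0218 to 0.0561 for elongation, from 0.10 to 0.17 for cytosolic and from 0.0495 to 0.24 for mitochondrial charging. Centring on the array median gave 0.14 for cytosolic charging. Under quantile normalization 23 member genes had both HoxA13 arrays above the controls and 7 below, beside 17.0% and 15.2% of all tested probe sets, and with centring 21 and 6, beside 16.3% and 15.8%. These last 2 were chosen after seeing the data, as were the counts against a single control. The cause of these changes was not tested. Signals near background limit 9 genes to no comparison.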
